A study of Homo sapiens and Mus musculus with 19 samples.

Results

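Cytosine modification at CCGG sites was described in mouse cerebellum at P21 (postnatal day 21), for each of the 3 states a site can be read in: unmethylated, 5-methylcytosine (5mC) and 5-hydroxymethylcytosine (5hmC). The sites were chosen by position and depth alone: they lie on autosomes and hold at least 10 tags in each of 3 libraries, whatever their state. Of 1519513 autosomal CCGG sites listed, 708183 met this (46.6%). The 3 P21 libraries are among 19 libraries of the study, which tests an assay called DARESOME on bulk tissue, cultured lines and single cells. The P21 libraries were made from bulk DNA, and their labels give the tissue and the age, without strain, sex, treatment or number of animals. They also do not say whether the 3 replicates are separate animals, so every spread and p-value measures differences between these libraries, which may be technical.

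Vertebrate DNA carries 5mC mostly at CpG, and every CCGG site holds one CpG. TET enzymes oxidise 5mC to 5hmC, a step on the way to an unmodified base that also leaves a lasting mark in cells that no longer divide. Neurons hold far more 5hmC than most other cells, and the cerebellum, whose cells are mostly granule neurons with Purkinje cells, other interneurons and glia among them, is a classic tissue for its study. CpG islands, short stretches dense in CpG that often cover promoters, are usually unmethylated.

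DARESOME gives each state its own adapter. HpaII cuts a CCGG site only where it is unmethylated, and the ends receive the first tag. MspI digestions before and after a glucosylation step give the tags of the other 2 states, and it is not stated in the labels how the 2 are separated by that order. The deposited tables carry no column names. The 3 shares were read in a fixed column order, the same at every site, as unmethylated, 5mC and 5hmC. Over all member sites the share read as 5hmC was the smaller of the 2 modified ones. Every 5hmC value rests on that order. Each read then counts as a tag of 1 state at 1 site, and a site's share of 5hmC is its 5hmC tags over all its tags. Where it helps, 5hmC is also given over modified tags (5mC plus 5hmC), since the 3 shares sum to 100% and a site high in one must be lower in the others. In bulk DNA a site's share pools all cells and both alleles. A mixture of cells in different states and a mixed state within cells cannot be told apart, nor can a change in the mix of cell types.

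The libraries held 21381571, 20111894 and 25952928 tags in replicates 1, 2 and 3, and the member sites held 93.5% to 93.8% of the autosomal tags. The median member site had 25, 23 and 30 tags, so single sites carry wide counting error. Replicate 2 stood apart on the sex chromosomes, with 3.97% as many tags on chromosome X as on the autosomes against 1.99% and 2.04%, and 0.0105% on chromosome Y against 0.222% and 0.222%. The sex chromosomes are in no comparison below. Without replicate 2, 5hmC at the member sites was 6.62%, against 6.49% with all 3. The main differences between classes given below were 12.4, 6.24 and 11.8 points for unmethylated share, crowding and clusters, against 12.1, 6.10 and 11.4. The tissue label could not be checked against marker genes, because no mouse gene annotation was used here.

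At P21 the cerebellar sites were mostly methylated. Of all tags at member sites, 73.0% ± 1.44 (SD, n = 3) were 5mC, 20.5% ± 0.816 were unmethylated and 6.49% ± 0.688 were 5hmC. Replicates 1, 2 and 3 had 7.27%, 6.23% and 5.97% of 5hmC, 71.3%, 74.0% and 73.6% of 5mC, and 21.4%, 19.8% and 20.4% unmethylated. Replicate 1 was the highest in 5hmC and in unmethylated tags and the lowest in 5mC. Over modified tags alone, 5hmC made up 9.25%, 7.77% and 7.50%, or 8.18% ± 0.943. Just inside the depth limit, 5hmC was 6.30% at the 19026 sites whose shallowest library had 10 tags, and just outside it was 6.19% at the 17124 sites with 9.

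Most sites leaned to 5mC, fewer to the unmethylated state, and almost none to 5hmC. Between 56.2% and 60.1% of sites had at least 80% of 5mC tags, and 8.02% to 8.76% had at least 80% unmethylated tags. Sites with at least 80% of 5hmC numbered 2, 1 and 0 in replicates 1, 2 and 3. In the remaining 31.2% to 35.2% of sites no state reached 80%. All 3 states were seen at 45.8% to 52.3% of sites. At most sites, then, 5mC or the unmethylated form alone held at least 80% of the tags, while 5hmC was a minor share almost wherever it was found.

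The spread of 5hmC over sites was wide and skewed. The median site had 5.00%, 4.17% and 3.7% of 5hmC in the 3 libraries, the 95th percentile 24.1%, 22.2% and 21.7%, and the 99th 36.7%, 34.5% and 33.3%. No 5hmC tag was seen at 30.9%, 38.0% and 34.4% of sites. At this depth a single library cannot tell such a site from one with a few percent. In all 3 libraries together, 92784 sites (13.1%) had no 5hmC tag, and these were 45.2% unmethylated. At the other end, 16521 sites (2.33%) had at least 20% of 5hmC in every library and 2512 (0.355%) at least 30%. At 198 sites 5hmC tags outnumbered 5mC tags in all 3 libraries, and these sites were 46.9% unmethylated. Of them, 35.4% had no other CCGG site within 500 bp, against 49.9% of all members.

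**Figure D1:**
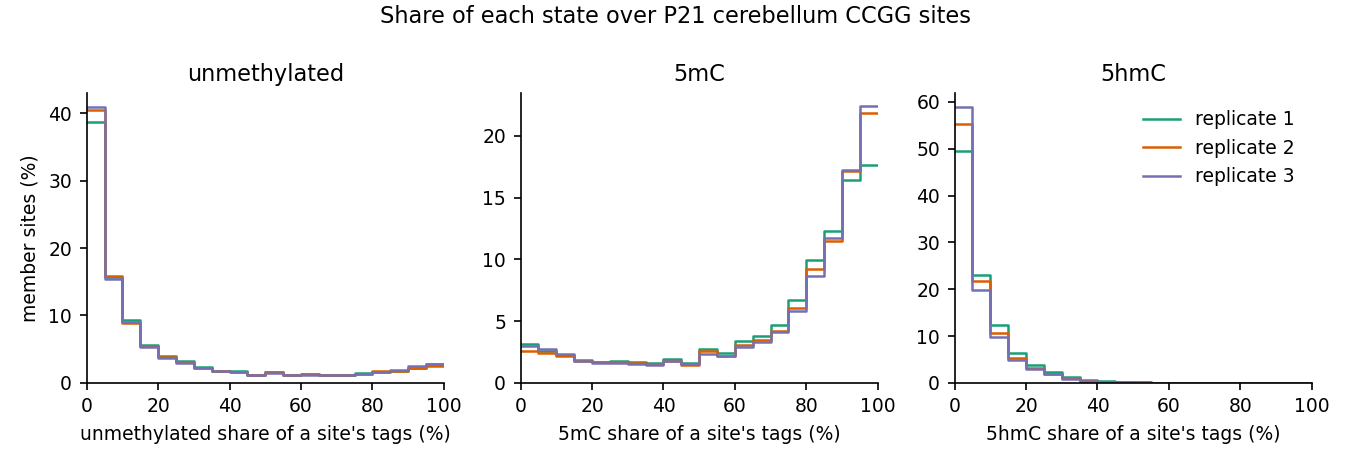
Share of member sites (%) against the share of tags of each state at the site (%), in steps of 5% and with 1 line for each of the 3 P21 libraries. The 5mC curve is highest near 100%, the unmethylated curve is highest near 0 with a small upturn near 100%, and the 5hmC curve is highest near 0 with a 99th percentile of 33.3% to 36.7%.

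The 5hmC share of a site recurred between libraries, though less closely than the other states. Across the 708183 sites, Pearson's r between libraries was 0.597 to 0.641 for 5hmC, against 0.949 to 0.956 for the unmethylated share and 0.930 to 0.939 for 5mC. These points are sites, not replicates, and libraries share the same positions and their base composition. At the 11985 sites with at least 50 tags in each library, the 5hmC values of r were 0.732 to 0.756. Thus the 5hmC correlation was higher where depth was higher.

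Classes of sites made by 5hmC in replicate 1 kept their order in replicates 2 and 3, at values nearer the average. Sites with no 5hmC tag in replicate 1 had 2.58% and 2.3% in replicates 2 and 3. Those at 10% to 20% had 9.66% and 9.49%, and those at 30% to 40% had 22.8% and 23.4%. The 1078 sites at 50% or more, with 53.9% in replicate 1, had 30.1% and 31.2%. A high share in 1 library thus overstates what the other libraries showed at the same sites, although those sites were still far above the average.

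Single sites illustrate this. Among 154032 sites with at least 30 tags in every library, the 6 highest in replicate 1 were taken, from different bins of 100 kb. The site at position 54988126 of chromosome 8 had 61.0% of 5hmC in replicate 1 (41 tags, exact Clopper-Pearson 95% interval 44.5% to 75.8%), 34.7% in replicate 2 (49 tags, 21.7% to 49.6%) and 48.0% in replicate 3 (50 tags, 33.7% to 62.6%). Position 118819046 of chromosome 6 had 60%, 36.7% and 46.9%, and position 141750879 of chromosome 3 had 56.9%, 40% and 34.3%. In replicates 2 and 3, which the ranking did not use, the bins around these 3 had 15.5% to 16.9%.

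The other sites of this ranking were lower in at least 1 of the libraries not used to rank them. Position 70416688 of chromosome 17 had 62.9%, 30.3% and 29.3%, position 58685097 of chromosome 3 had 59.1%, 36.7% and 25.5%, and position 115056684 of chromosome 5 had 57.6%, 24.2% and 47.6%. Their bins had 8.35% to 13% in replicates 2 and 3. At each of the 6 sites, in both libraries the ranking did not use, the lower bound of the interval was above the share of the bin. Sites were ranked the same way by unmethylated share, where 100% is the ceiling of the scale and leaves little room to move. Position 147084108 of chromosome 2 was 100%, 94.5% and 94.6% unmethylated, 118923038 of chromosome 14 was 100%, 96.9% and 96.1%, and 21450111 of chromosome 17 was 100%, 94.8% and 98.6%. Intervals cover counting error only.

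The next question was how 5hmC relates to the unmethylated share of the same site. Sites were put in classes by their unmethylated share in 1 library, and 5hmC was read in the other 2, so that the class and the value shared no counting error. As a share of all tags, 5hmC was 5.47% ± 0.804 where 0% to 5% of tags were unmethylated, 10.1% ± 0.743 at 20% to 40%, 5.51% ± 0.421 at 60% to 80% and 0.442% ± 0.0579 at 95% to 100%. It was highest at sites that were partly unmethylated and lowest at those almost wholly unmethylated. The 20% to 40% class exceeded the 0% to 5% class by 4.68 percentage points ± 0.0967, in 3 of 3 libraries.

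Over modified tags the contrast was larger. Where 0% to 5% of tags were unmethylated, 5hmC made up 6.61%, 5.33% and 5.02% of the modified tags of replicates 1, 2 and 3. In the 40% to 60% class it made up 19.3%, 16.9% and 17.1%, and in the 60% to 80% class 19.3%, 17.2% and 17.1%. The classes did not overlap: the lowest library at 40% to 60% was above the highest at 0% to 5%, and the difference was 12.1 points ± 0.532 (3 of 3 libraries, exact sign-flip permutation p = 0.25, two-sided, the smallest p that 3 libraries allow). Each difference in points given with an SD, above or below, was tested in the same way and had the same p, so none can pass a threshold of 0.05. Other comparisons of site classes, of quartiles of bins and of chromosome stretches were not tested.

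Past the middle classes, 5hmC of modified tags was lower again. It was 17.9% ± 1.23 at 60% to 80% unmethylated, 13.7% at 80% to 95% and 7.0% ± 0.913 at 95% to 100%. The last class was below the 60% to 80% class by 10.9 points ± 0.445, in 3 of 3 libraries. The 60% to 80% and 40% to 60% classes differed by 0.131 points ± 0.152, less than the spread between libraries. 5hmC per modified tag was thus highest at sites from 40% to 80% unmethylated and low at both ends.

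**Figure D2:**
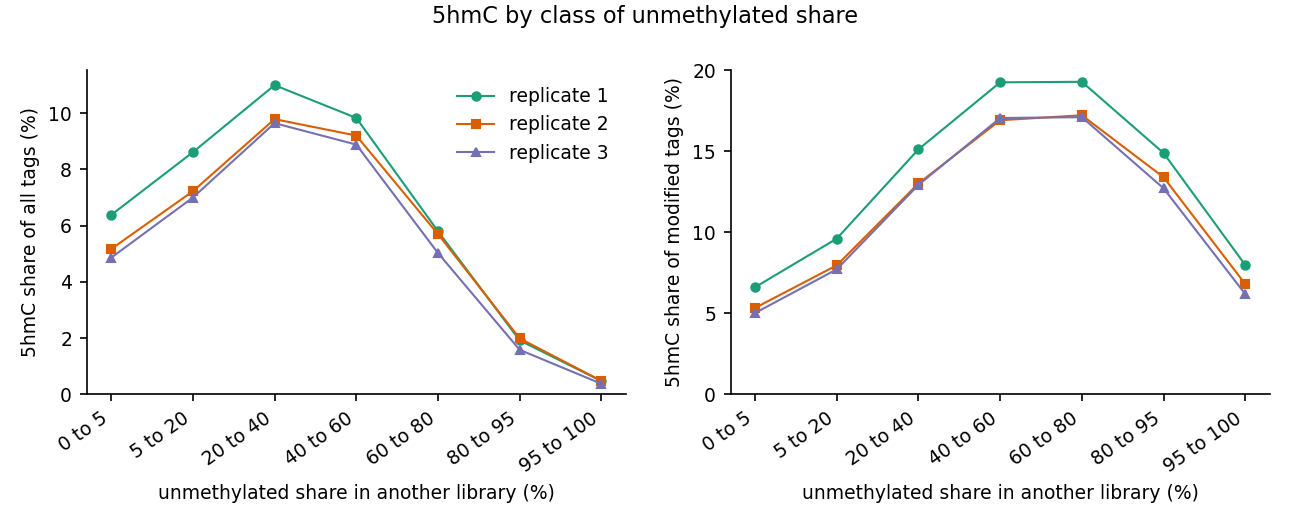
5hmC (%) against the class of unmethylated share (%), as a share of all tags (left) and of modified tags (right), with 1 line per library and the class taken from another library. Of modified tags, mean 5hmC is 5.66% in the lowest class, 17.8% and 17.9% in the classes from 40% to 80%, and 7.0% in the highest.

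Site spacing was examined next, because CCGG sites crowd together in CpG islands and thin out elsewhere. The count of other listed sites within 500 bp was taken from positions alone. Where sites crowded, 5hmC was nearly gone. The high unmethylated share there had served to check the column order, so it is a description and no finding. Unmethylated tags made up 15.6% ± 0.672 at the 353249 sites with no other site in the window, 28.7% ± 1.04 at 2 to 4 others, and 80.8% ± 0.889 at the 4892 sites with 10 or more. 5mC was 77.8%, 64.9% and 18.7% in those classes.

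The 5hmC share was 6.60% ± 0.740 at isolated sites, 6.83% at 1 other site, 6.44% at 2 to 4, 2.26% at 5 to 9 and 0.506% ± 0.0784 at 10 or more. Isolated sites were 6.10 points ± 0.666 above the most crowded ones, in 3 of 3 libraries. Over modified tags the order was different. 5hmC made up 7.83% at isolated sites, 9.04% at 2 to 4 others and 2.65% at 10 or more, so moderately crowded sites were highest. They exceeded isolated sites by 1.21 points ± 0.0204 and the most crowded by 6.38 points ± 0.452, each in 3 of 3 libraries.

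The depth limit kept fewer of the crowded sites. Members were 62.2% of listed isolated sites but 4.61% of those with 10 or more others. Since digestion and size selection act on fragment length, the crowded members may not stand for all crowded sites, and the part of this selection in the differences was not tested.

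**Figure D3:**
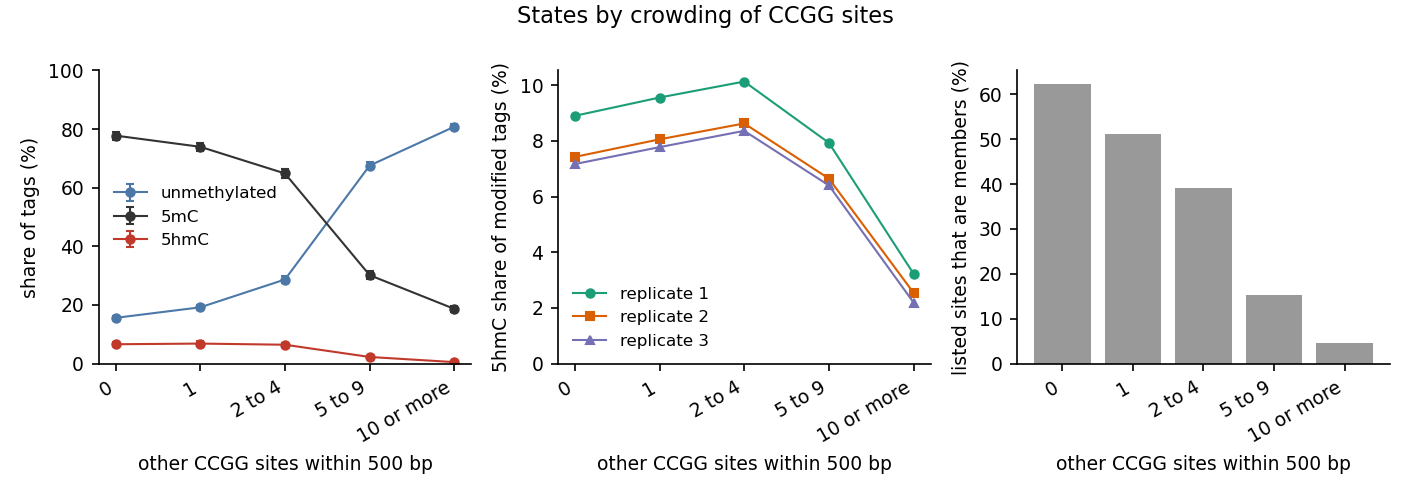
By the number of other CCGG sites within 500 bp: shares of tags (%, mean and SD of 3 libraries, left), 5hmC of modified tags (%, 1 line per library, middle) and the share of listed sites that are members (%, right). The 5hmC share is 6.60% at isolated sites and 0.506% at 10 or more others, and members are 62.2% and 4.61% of listed sites.

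Distance to the nearest site gave a peak at middle spacing. 5hmC was 3.02% below 10 bp, 7.07% at 300 to 500 bp and 5.19% beyond 5000 bp. The unmethylated share was 31.7% below 10 bp, 34.5% at 25 to 50 bp and 10.9% in the farthest class. Over modified tags 5hmC was 4.43% below 10 bp, 9.02% at 200 to 300 bp and 5.83% beyond 5000 bp. Members were 12.6% of listed sites below 10 bp, 61.9% at 300 to 500 bp and 62.5% beyond 5000 bp. The closest class may thus not stand for all such sites, and the part of this selection was not tested.

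Crowding and the unmethylated share were then crossed, to see whether sites of the same unmethylated share held the same 5hmC. In the class 40% to 60% unmethylated, 5hmC made up 17.6% ± 1.33 of modified tags at isolated sites, 18% at 1 other site and 18.1% at 2 to 4. Sites with 2 to 4 others were above isolated ones by 0.481 points ± 0.149, in 3 of 3 libraries. 5hmC was 14.3% at 5 to 9 others and 3.94%, 3.54% and 3.82% at 10 or more, where only 80 to 97 sites were left. Isolated sites were above the most crowded by 13.8 points ± 1.19 in this class, and by 3.25 points ± 0.395 in the 0% to 5% class, each in 3 of 3 libraries. Sites modified in part inside the densest clusters therefore carried 5mC with little 5hmC.

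The surroundings of such clusters were followed outward. Runs of sites with at least 10 others within 500 bp were joined into 7753 clusters with a median length of 560 bp. No annotation of CpG islands was used. The 4937 members inside were 80.9% ± 0.900 unmethylated with 0.503% of 5hmC. Up to 200 bp outside, 84.3% were unmethylated with 0.689% of 5hmC, and at 200 to 500 bp 81.5% with 2.04%. The unmethylated share thus held to 500 bp while 5hmC had begun to appear.

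Farther out the states changed over. At 500 to 1000 bp the unmethylated share was 60.5% and 5hmC was 5.54%, at 1 to 2 kb they were 38.1% and 7.56%, and at 2 to 4 kb 28.0% and 7.62%. Beyond 500 kb they were 13.5% and 5.33%. The 5hmC share of all tags was highest at 1 to 4 kb from a cluster.

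Over modified tags the flank was the high point of the profile. 5hmC made up 2.65% inside the clusters, 4.39% up to 200 bp outside, 11.1% at 200 to 500 bp and 14.1% ± 1.10 at 500 to 1000 bp, where replicates 1, 2 and 3 had 15.3%, 13.3% and 13.6%. It was 12.2% at 1 to 2 kb, 10.6% at 2 to 4 kb, 9.4% at 4 to 10 kb and 6.17% ± 0.847 beyond 500 kb. The flank at 500 to 1000 bp was above the inside by 11.4 points ± 0.670 and above the sites beyond 500 kb by 7.90 points ± 0.356, in 3 of 3 libraries. With looser clusters, of sites with at least 5 others, the first difference was 5.58 points, an alternative added after seeing the data.

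**Figure D4:**
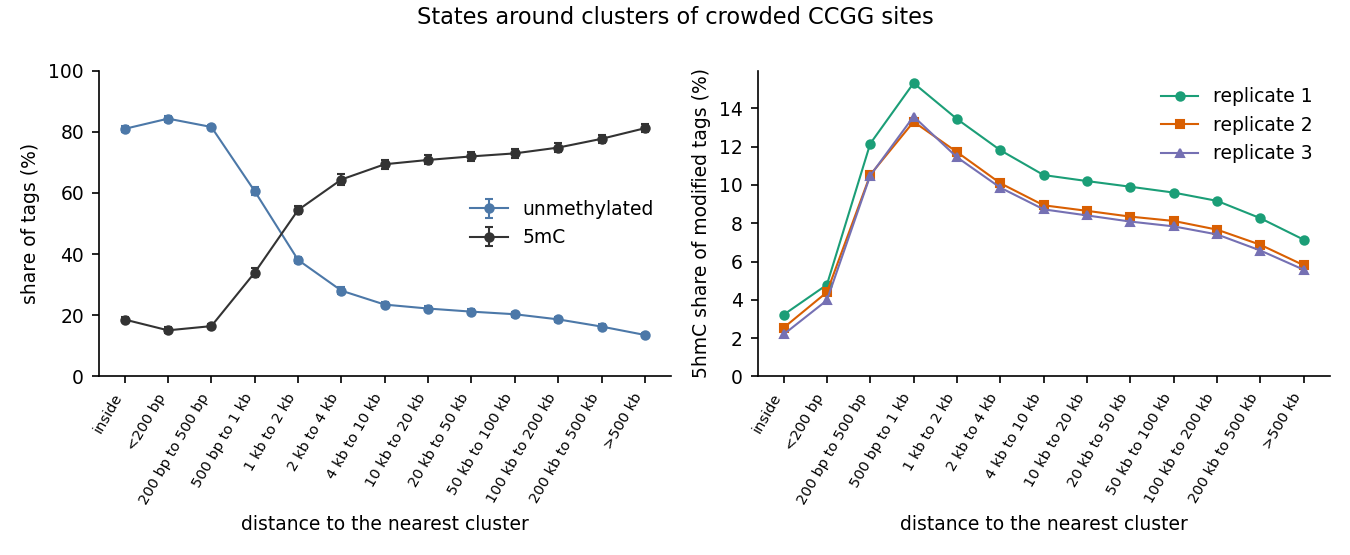
Shares of unmethylated and 5mC tags (%, mean and SD of 3 libraries, left) and 5hmC of modified tags (%, 1 line per library, right) by class of distance from the nearest cluster of crowded CCGG sites, the classes widening outward. The unmethylated share is 80.9% inside and 13.5% beyond 500 kb, and mean 5hmC of modified tags is highest, at 14.1%, from 500 to 1000 bp.

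Likeness between neighbouring sites was described for each state. Each site of 1 library was set against the next member site in another library, and r is the mean over the 6 ordered pairs of libraries. For the unmethylated share r was 0.892 below 50 bp (7318 pairs of sites), 0.401 at 500 to 1000 bp and 0.0154 beyond 20 kb. For 5mC it was 0.878, 0.429 and 0.0538. For 5hmC it was 0.437 below 50 bp and 0.154 at 500 to 1000 bp, and from there it stayed level, at 0.142 at 10 to 20 kb and 0.141 beyond 20 kb (9054 pairs, range over library pairs 0.134 to 0.149). The r of 5hmC between neighbours was lower than for the other states at short distance and changed least beyond 1000 bp. Counting error at single sites lowers all of these values of r. Even at the same site, r between libraries was 0.597 to 0.641 for 5hmC. It was 0.949 to 0.956 for the unmethylated share and 0.930 to 0.939 for 5mC. The lower r of 5hmC at short distance was not separated from this difference.

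Bins of 100 kb hold far more tags than single sites. Over 23924 bins, r between libraries for the same bin was 0.903 for 5hmC and 0.979 for the unmethylated share. Between bins 0.1 Mb apart, 5hmC had r = 0.581, 5mC 0.552 and the unmethylated share 0.471. At 1 Mb apart 5hmC had 0.197, 5mC 0.278 and the unmethylated share 0.254, and at 10 Mb they had 0.0217, 0.0518 and 0.0551. The value of r was highest for 5hmC at 0.1 Mb and lowest for it at 1 Mb and 10 Mb.

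**Figure D5:**
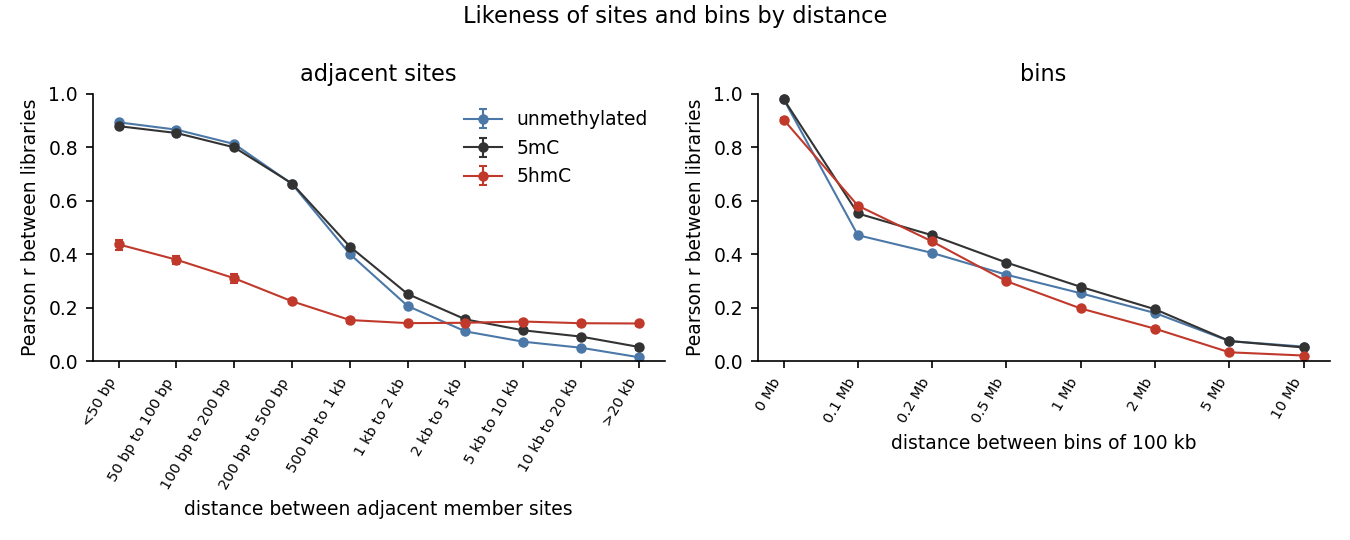
Pearson's r of each state's share between libraries, against the distance between adjacent sites (left) and between 100 kb bins (right), as the mean over pairs of libraries with bars for their range. Between sites the 5hmC curve is level at about 0.14 from 1000 bp outward, while those of the unmethylated share and 5mC reach 0.0154 and 0.0538.

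Bins with more unmethylated DNA tended to have more 5hmC. Across bins, with the 2 values read in different libraries, r of 5hmC was 0.363 with the unmethylated share and -0.557 with 5mC. For 5hmC of modified tags, r with the unmethylated share was 0.553. These bins share libraries and base composition, and 5hmC also had r = 0.270 with the number of listed sites on a log2 scale. In the quartile of bins with the fewest listed sites (5 to 37), 5hmC was 5.10% ± 0.718 and the unmethylated share 11.4%. In the quartile with the most (81 to 325), they were 7.14% ± 0.650 and 26.7%. CCGG-rich bins thus had more of both, although the most crowded single sites had the least 5hmC.

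The excess of 5hmC at partly unmethylated sites was also read within bins of similar 5hmC. Bins were put in quartiles by 5hmC in replicate 1, and 5hmC of modified tags was read in replicates 2 and 3. In the lowest quartile it was 2.60% and 2.29% at sites with 0% to 5% unmethylated tags and 7.37% and 7.06% at 40% to 60%. In the highest quartile it was 8.25% and 8.07%, and 20.4% and 20.9%. Partly unmethylated sites exceeded methylated ones in both quartiles. That the highest quartile has more 5hmC follows from the ranking, since the bins were ranked on these same sites.

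Each bin was tested with edgeR's quasi-likelihood method (Benjamini-Hochberg adjusted p under 0.05) for odds of 5hmC that differ from those of the whole library by more than the spread between the 3 libraries. The method shares information on that spread across bins, so the p-value of a bin does not rest on its own 3 libraries alone. Of 23924 bins, 16978 (71.0%) were called, 5674 of them higher (23.7%) and 11304 lower (47.2%). The balance depends on the reference: the median bin lies at -0.245 in log2 odds against the library, and measured from the median bin 8121 were higher (33.9%) and 8006 lower (33.5%). Called bins had a median share of 9.13% when higher and 3.80% when lower. Against the library, 751 bins (3.14%) were at least 2-fold higher in odds and 4400 (18.4%) at least 2-fold lower.

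All 3 libraries lay on the called side in 5515 of the 5674 higher bins and in 11121 of the 11304 lower ones. The same test of 5mC called 21353 bins (89.3%), 14540 of them higher (60.8%) and 6813 lower (28.5%). Of the unmethylated share it called 21390 (89.4%), with 6556 higher (27.4%) and 14834 lower (62.0%). Measured from the median bin, these became 10550 higher and 10552 lower for 5mC, and 10522 higher and 10451 lower for the unmethylated share. Since most bins passed in each state, the sizes of the differences say more than the calls. In 72.3% of bins replicate 1 had the highest 5hmC, as it had genome-wide.

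Bins called higher in 5hmC were found on every side of the test of unmethylated share, in which 27.4% of all bins were higher and 62.0% lower. Of the 5674 higher bins, 2751 were also higher in unmethylated share (48.5% of them, and 42.0% of all bins higher in unmethylated share). These averaged 9.61% ± 0.699 of 5hmC and 29.8% unmethylated. Another 2171 were lower in unmethylated share (38.3% of them, and 14.6% of all bins lower in it), with 9.51% ± 0.911 of 5hmC, 76.1% of 5mC and 14.4% unmethylated. The remaining 752 (13.3%) were not called in unmethylated share and had 9.61% of 5hmC. All 3 groups were chosen for high 5hmC, so their like levels of it follow from the choice.

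Bins called lower in 5hmC were lower in unmethylated share more often than the 62.0% of all bins that were, and that difference was not tested. Of the 11304 lower bins, 8595 were also lower in unmethylated share (76.0%, and 57.9% of all bins lower in it), with 3.69% ± 0.627 of 5hmC and 10.9% unmethylated. In 1852 bins (16.4%, and 28.2% of all bins higher in unmethylated share) 5hmC was lower at 4.55% while 31.3% of tags were unmethylated. Of the bins higher in unmethylated share, 42.0% were thus higher in 5hmC and 28.2% lower, against 23.7% and 47.2% of all bins. A high unmethylated share came with either, but with high 5hmC more often than among all bins, a difference that was not tested.

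The bins named here are those with the most or least 5hmC among called bins with at least 200 tags in every library, so their levels describe them and test nothing. The highest was on chromosome 13 from 44800001 to 44900000, with 25.5%, 22.4% and 22.4% of 5hmC in replicates 1, 2 and 3 (19 sites, log2 odds 2.14 ± 0.110 SE, edgeR adjusted p = 5.00e-82). For this bin, limma on logit shares gave an adjusted p of 1.6e-07. On chromosome 4 from 85300001 to 85400000 the libraries had 25.3%, 21.1% and 21.5%, and on chromosome 11 from 93200001 to 93300000 they had 25.2%, 21.5% and 20.8%. Chromosome 3 held the other 3 of the 6, from 136700001 to 136800000 (21.4%, 24.2% and 19.6%), from 141600001 to 141700000 (23.1%, 21.7% and 20.2%) and from 28300001 to 28400000 (23.6%, 20.1% and 19.6%). 5mC was still 45.6% to 63.9% in these bins, so even there 5hmC was the lesser modification.

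The high bins differed in their unmethylated share. It was 31.8% ± 1.86 in the chromosome 11 bin and 15% ± 1.32 in the last one of chromosome 3. Further bins with high 5hmC and an unmethylated share below the library's were looked up after their values were seen. Chromosome 6 from 23700001 to 23800000 had 19.4%, 20.1% and 22.5% of 5hmC with 9.31% unmethylated, and chromosome 3 from 80700001 to 80800000 had 20.4%, 19.9% and 20.4% with 15.8%.

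The 6 bins lowest in 5hmC were almost without it. On chromosome 13 from 120000001 to 120100000 no 5hmC tag was seen in 244, 210 and 307 tags, which allows a share of up to 1.23%, 1.43% and 0.977%, and 83.2% ± 2.68 of tags were unmethylated. The other 5 were methylated instead. On chromosome 6 from 132200001 to 132300000 5hmC was 0.386%, 0.433% and 0.293% (log2 odds -4.23 ± 0.480 SE, edgeR adjusted p = 1.57e-17, limma adjusted p = 0.000541), and the next bin, to 132400000, had 0.540% ± 0.499. Chromosome 9 from 36500001 to 36600000 had 0.410% ± 0.186 with 92.5% of 5mC, chromosome 4 from 121600001 to 121700000 had 0.416% ± 0.316, and chromosome 13 from 66600001 to 66700000 had 0.479% ± 0.477. Their unmethylated share was 7.06% to 17.3%, so a near absence of 5hmC was found in mostly unmethylated and in mostly methylated bins.

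The 6 bins highest in unmethylated share ranged widely in 5hmC. Chromosome 15 from 102900001 to 103000000 was 86.3% ± 0.834 unmethylated (54 sites, log2 odds 4.61 ± 0.0502 SE) with 0.567% ± 0.254 of 5hmC, and the chromosome 13 bin without 5hmC tags came next. Chromosome 6 from 52200001 to 52300000 was 80.3% ± 1.19 unmethylated with 0.819% ± 0.453 of 5hmC. In contrast, chromosome 8 from 84700001 to 84800000 was 72.8% ± 1.23 unmethylated and had 6.66%, 7.04% and 6.81% of 5hmC over 86 sites. The last 2 were on chromosome 9 from 91300001 to 91400000 (72.1% unmethylated, 3.36% of 5hmC) and on chromosome 8 from 57300001 to 57400000 (71.6% and 1.44%). In the last 3, nearly alike in unmethylated share, mean 5hmC thus ran from 1.44% to 6.84%, with an SD between libraries of 0.188 to 0.612.

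Some called bins lay side by side in runs and others stood alone. The 5674 higher bins formed 2636 runs, of which 1390 were single bins. The 234 higher runs of 5 bins or more held 28.6% of the bins. The 11304 lower bins formed 3498 runs, of which 1573 were single bins. The 624 lower runs of 5 or more held 55.8%. The median run was 1 bin for higher and 2 for lower. There were more lower bins than higher ones, which by itself lengthens their runs.

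The longest runs spanned megabases. The longest higher run covered 20 bins on chromosome 4 from 127400001 to 129400000, with 10.7%, 9.76% and 9.47% of 5hmC and 26.0% unmethylated. The next was 16 bins on chromosome 13 from 43400001 to 45000000, with 10.6% ± 0.884, and it contains the bin highest in 5hmC. The longest lower run covered 60 bins on chromosome 17 from 17700001 to 23700000, with 2.55%, 1.96% and 1.62% of 5hmC and 81.7% of 5mC. A second on the same chromosome, 51 bins from 36900001 to 42000000, had 1.54% ± 0.430 of 5hmC with 33.2% unmethylated. The unmethylated share of the first was 16.3%. Both runs were chosen for low 5hmC, so their like levels of it follow from the choice, while their unmethylated share was free to differ.

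Whole chromosomes differed less in 5hmC than in the unmethylated share. Mean 5hmC ran from 5.94% ± 0.693 on chromosome 3 to 6.90% ± 0.700 on chromosome 9, and the unmethylated share from 17.5% on chromosome 3 to 24.4% on chromosome 11. Replicate 1 was the highest and replicate 3 the lowest in 5hmC on 19 of 19 chromosomes. Chromosomes thus ranged less in mean 5hmC than the libraries did genome-wide.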

How the data were processed

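The 3 P21 libraries were analysed as 1 group. The tools named, per the submitters' processing notes, are Bowtie2 2.3.4.1, cutadapt 1.5 and UMI-tools 0.5.4, and how tags were counted is not given in the sources used here. The authors deposited, per CCGG site, 3 values in the unit fraction (the shares of unmethylated, 5mC and 5hmC tags) and the count of tags behind them. Multiplying the 2 returned whole tags of each kind, with deviations of at most 0.00358. The tables name no columns: the fractions were read in a fixed order as unmethylated, 5mC and 5hmC. That order was checked against site crowding, where the fraction read as unmethylated was higher. The build listed is hg38 throughout, which cannot hold for mouse. Positions were read as mm10, since the highest position on chromosome 1, 195371253, lies past the end of that chromosome in the later mouse build. No mouse genome or annotation was used, so sequences and genes are not given, and bins of 100000 bp and chromosome position took the place of genes.

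Shares pool tags over sites (Python 3.11.15, NumPy 2.4.6) and are means with SDs over the 3 libraries. Pairs of classes whose difference is given in points with an SD were compared with exact sign-flip permutation tests over libraries, two-sided (SciPy 1.17.1). Bins needed at least 3 member sites and 50 tags in every library. For each bin, edgeR 4.0.16 (quasi-likelihood, R 4.3.3) tested the tag count of 1 state against the other 2, with a term per library and library sizes set to the totals of each kind, so the effect is the log2 odds relative to the library. The test was checked on simulated data with 23924 bins, 100 of them changed 1.5-fold and 100 changed 2-fold: it recovered 86% and 98% for 5hmC, with 9 false calls, 100% and 100% for 5mC, with 9, and 99% and 99% for the unmethylated share, with 15. In the simulation every other bin had the library's own share, and all changes were upward. Most real bins were called, many of them lower, so these rates need not hold for the real bins and do not cover lower calls. Intervals are Clopper-Pearson at 95%, and a count of 0 is given the limit of 3 tags.

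Bins were named as the 6 highest and 6 lowest in 5hmC and the 6 highest in unmethylated share, among called bins with all 3 libraries on 1 side and at least 200 tags in each. Sites were named by replicate 1 alone, with at least 30 tags in every library: 6 for 5hmC and 3 for the unmethylated share. Bins picked later, with values in view, are marked so. The members, classes and lists were chosen with earlier results of these data known. Gene lists and cell type markers were not analysed here. Alternatives covered the tag minimum, window, bin size, weighting, DESeq2 1.42.0, limma 3.58.1 on logit shares, the reference, and each replicate left out. Figures were drawn with matplotlib 3.10.9.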

Additional observations from a re-analysis of the deposited data

Results flagged for a closer look

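Chromosome X and chromosome Y belong to no comparison above, and both carried tags. At the 18684 chromosome X sites with at least 10 tags in each library, 5hmC was 5.19%, 2.76% and 3.92% in replicates 1, 2 and 3, and 5mC was 79.4%, 84.1% and 81.6%. The unmethylated share there was 15.5%, 13.1% and 14.5%. Tags on chromosome Y came to 0.222%, 0.0105% and 0.222% of the autosomal tags, and those on chromosome X to 1.99%, 3.97% and 2.04%. Replicate 2, with the most tags on X and the fewest on Y, also had the lowest 5hmC on X. On the autosomes it was not the lowest, with 6.23% against 7.27% and 5.97%. Whether the libraries differ in the sex of the animals was not tested, and the labels used here do not give it.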

How the results depend on the processing

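No paired analysis was possible because 1 group was analysed. The profile along genes and its alternative were not run, for want of a mouse annotation. Of 86 settings tried on site and count results, 77 kept the value within the spread between libraries (counts within 1.5 times), 9 moved and 0 reversed. The shares and the spacing and cluster differences are means over 3 libraries. Leaving out 1 library cannot move such a mean by as much as that spread, so those settings were bound to be kept and test nothing. At a tag minimum of 30 the unmethylated share was 18.99%, the difference between the 40% to 60% and 0% to 5% unmethylated classes 12.7 points, the flank less inside of clusters 10.53 points, and r of 5hmC below 50 bp 0.398 (19 pairs only). With a window of 1000 bp, isolated sites exceeded the most crowded by 4.549 points. With clusters of at least 5 other sites, chosen after seeing the data, the flank exceeded the inside by 5.58 points. Leaving out each replicate gave r below 50 bp of 0.4197 to 0.4519. Bins of 20000 bp gave 47754 called bins of 92884 for 5hmC (51.4%). More and smaller bins are tested there, and otherwise the causes were not tested. In bins of 100 kb, DESeq2 called 14337, limma 16603 and leaving out each replicate 14781 to 15587. Bins named by rank kept their call in 120 of 120 settings, and the bins looked up later were not tried. Since they are the most extreme of the called bins, a kept call was likely from the start. For DESeq2, limma and the median-bin reference the direction was carried over from the main fit, so it could not reverse. It was fitted anew with each replicate left out, and for 5hmC with 5mC tags as reference, and was kept in each. Depth limits single sites most, at medians of 23 to 30 tags, and the sign-flip test over 3 libraries cannot give a p below 0.25.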

Other observations

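Each autosome was split into 10 stretches of equal length from the first to the last listed site. Mouse autosomes have their centromere at the start, so the first stretch is the centromeric end. Over the first stretch, 5hmC was 5.81% ± 0.693 (SD, n = 3) and the unmethylated share 17.9% ± 0.737, and over the last stretch they were 7.02% ± 0.672 and 23.0% ± 0.897. In each library 5hmC was higher in the last stretch, at 7.78%, 6.75% and 6.51% against 6.60%, 5.55% and 5.29% in replicates 1, 2 and 3. Close to either end 5hmC was lower than within 5 Mb of it. It was 4.78% ± 0.633 in the first 1 Mb against 5.83% in the first 5 Mb, and 5.54% ± 0.582 in the last 1 Mb against 7.01% in the last 5 Mb. The unmethylated share was also lower close to either end. It was 17.5% in the first 1 Mb against 19.02% in the first 5 Mb, and 22.2% in the last 1 Mb against 24.4% in the last 5 Mb.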
